A study of Sus scrofa with 4 samples.

Results

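The genes described here encode the proteasome and the ubiquitin-conjugating (E2) enzymes that supply it with substrates, measured in porcine granulosa cells (GCs) with and without non-esterified fatty acids (NEFAs). They were taken from the probe annotation by symbol, as every gene whose name starts with PSMA, PSMB, PSMC, PSMD, PSME, PSMF, PSMG or UBE2, with PSMC3IP and UBE2C left out. This gave 52 genes with 92 probes, of the 10022 genes with 13146 probes that the annotation names, namely 34 PSM genes with 56 probes and 18 UBE2 genes with 36 probes. The brightest probe stood for each gene, and 51 of the 52 had a value on all 4 arrays.

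GCs aspirated from the follicles of slaughterhouse pig ovaries were grown to a monolayer, and cumulus-oocyte complexes were then matured in vitro on top of them in NCSU-23 medium. The NEFA group received a high level of a mixture of palmitic, stearic and oleic acid bound to bovine serum albumin (BSA) during maturation, and the control group received the same medium with BSA and ethanol but no added fatty acid. The cells of all wells of a culture plate were pooled as 1 replicate, the 4 replicates were collected on different days, and the NEFA and control RNA of a replicate were amplified, labelled with Cy3 or Cy5 and hybridised together on 1 array read in both colours. The arrays are called A to D for replicates 1 to 4, and by the channel fields of the labels NEFA RNA was green (Cy3) on arrays A and B and red (Cy5) on arrays C and D. The monolayer is a primary culture of unsorted follicular cells, so fewer cells of a type and less RNA per cell cannot be told apart in these values.

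The proteasome is a barrel, the 20S core, in which rings of alpha subunits gate the entrance and rings of beta subunits carry the cutting sites. The 19S cap recognises proteins tagged with ubiquitin, removes the tag and unfolds them with a ring of ATPases. E2 enzymes stand upstream: they take activated ubiquitin from an E1 enzyme and, with an E3 ligase, pass it to the substrate, and individual E2s differ in whether they start a chain, extend it or serve DNA repair.

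The labels and the arrays leave the sign of each difference unsettled. The sample titles assign the dyes the other way round from the channel fields, and the channel fields were followed, so that a positive log2 ratio means more signal in the NEFA RNA; the titles would turn every sign. Array A ran against array B, which has the same labelled orientation. The log2 ratios of red to green of all probes correlated at r = -0.74 between A and B, against 0.47 between C and D, and those of the 51 genes at r = -0.89 and 0.54, all across probes or genes within pairs of arrays. The array's own control probes ran the same way: each array was correlated with the average of the rest over 57 control identifiers, which gave r = -0.81 for A and 0.78, 0.77 and 0.76 for B, C and D. Local background was higher in green than in red on array A (117 against 63.3), and higher in red on the others (116 to 173, against 60.8 to 75.1). ANGPTL4, a gene switched on by fatty acids and chosen after its values were seen, had the highest log2 ratio of all 9962 genes under both readings, at -2.72 on array A as headed and 3.04, 3.03 and 3.47 on B, C and D. Its means were 1.71 as headed and 3.06 with array A exchanged. Calls and the mean ratios of genes are therefore given with the columns of array A as headed and with its red and green columns exchanged.

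The pathway was well represented among the probes with signal. Of the 51 genes, 35 were above background in all 8 channels (4 arrays, 2 dyes), where background is the mean plus 2 SD of 153 negative control spots on each array, and 5 were above it in none. Over all 9962 genes measured on all 4 arrays, 2461 were above background in all 8 channels and 3845 in none. Between 23.9% and 42.7% of the 43794 expression probes exceeded background, depending on array and dye. The granulosa markers AMH and FST were above background in all 8 channels, while LHCGR and INHBA were in none, and 6 of the 17 markers listed were measured. None of 11 leukocyte markers was above background in all 8 channels and 4 were above it in none, while CD79B and LCP1 were above it in 5 of 8. Of 9 oocyte genes measured, GDF9 and FIGLA were above background in all 8 channels and 6 were above it in none. Of 10 theca and stroma genes, 5 were above it in all 8 channels and 2 in none. The part of these cells in the values below was not tested.

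With the columns as headed, the proteasome and E2 genes showed no call. A gene was called where limma gave an unadjusted p under 0.05 and the change exceeded 1.2-fold, which is 0.26 on the log2 scale. None of the 51 genes was called in either direction, beside 0.281% of all genes called higher with NEFAs and 0.522% called lower. None had an unadjusted p under 0.05, as 142 of 9962 genes (1.43%) did, and the smallest Benjamini-Hochberg adjusted p among the members was 0.9995. The median log2 ratio of the members was -0.06, beside -0.02 over all genes, and 33 of 51 lay below 0 (64.7%, against 58.1% of all genes). Only 3 of the 51 had the same sign on every array (5.88%, against 7.67% of all genes), namely PSMA6 and PSMG3, below 0, and UBE2U, whose probe was above background in no channel.

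With array A exchanged, 3 members were called. PSMD3, a subunit of the lid of the 19S cap, was higher with NEFAs, and 1 member of 51 stood beside 1.08% of all genes called higher. PSMD10, also known as gankyrin and a chaperone of cap assembly, and UBE2A, an E2 of DNA damage tolerance, were lower, 2 of 51 beside 3.08% of all genes. PSMD5, another assembly chaperone, and UBE2N, which builds the ubiquitin chains used in signalling, had an unadjusted p under 0.05 with changes short of 1.2-fold. Thus 5 of 51 members had such a p, beside 584 of 9962 genes (5.86%), and none passed Benjamini-Hochberg adjustment, which 2 probes of the whole array did (smallest adjusted p among members, 0.654). The shares called were close to the background in both directions. Adding a dye term to the exchanged model left the same 3 members called, beside 3% of all genes higher and 3.71% lower. An unadjusted p under 0.05 was then reached by 15 of 51 members (29.4%), 4 above and 11 below 0, against 14.3% of all genes. Among genes above background in all 8 channels the shares were 40% of the 35 members and 36% of all 2461.

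**Figure D1:**
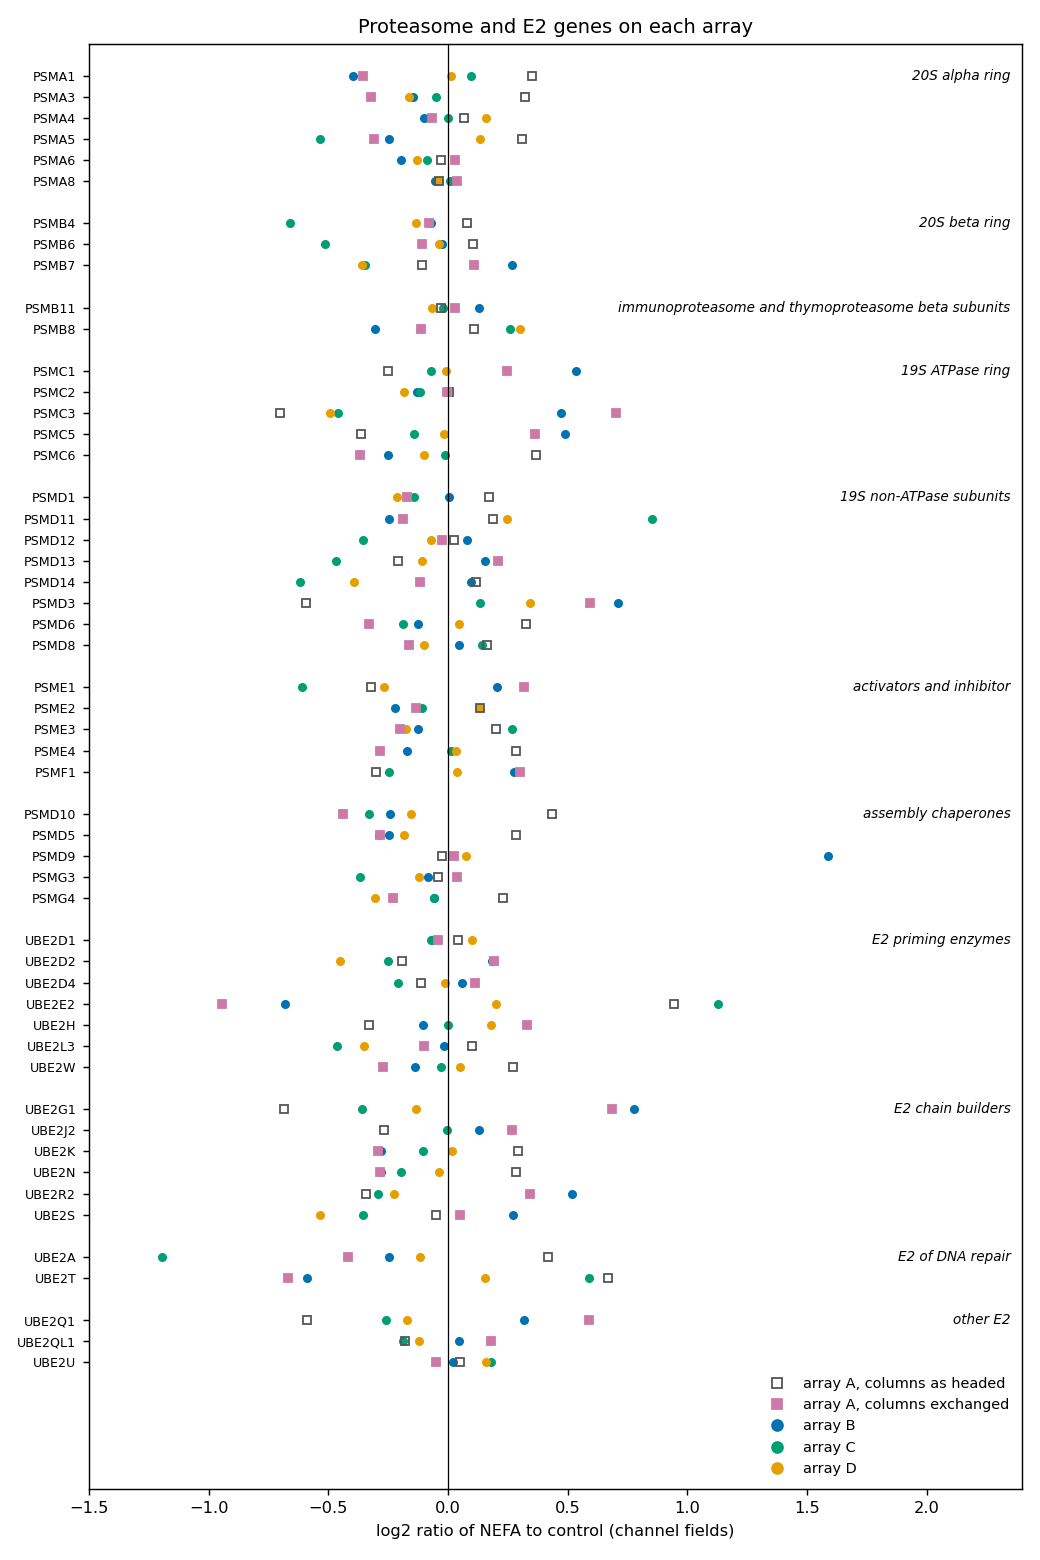
Log2 ratio of NEFA to control RNA (x axis) for each of the 52 genes (y axis, grouped by role) on each array. Circles are arrays B, C and D, open squares array A as headed and filled squares array A with its columns exchanged, which mirror each other about 0. For PSMD3, PSMD10, PSMD5, UBE2A and UBE2N the filled square and all 3 circles lie on one side of 0, and PSMD9 has no point for array C.

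The plot of ratios by array shows that most members lay within a narrow band around 0 and that array A decided on which side many of them fell. With array A exchanged, the members' median was -0.08, beside -0.01 over all genes, 37 of 51 lay below 0 (72.5%, against 54.0% of all genes) and 12 of 51 had the same sign on all arrays (23.5%, against 13.0%), 11 of them below 0. Bright genes as a whole leaned the same way. Among genes above background in all 8 channels, the median was -0.11 for the 35 members and -0.05 for all 2461 such genes, 77.1% and 59.9% lay below 0, and 31.4% and 24.6% had one sign throughout. The members' own medians on the single arrays were 0.07 on A as headed, -0.06 on B, -0.14 on C and -0.07 on D.

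**Figure D2:**
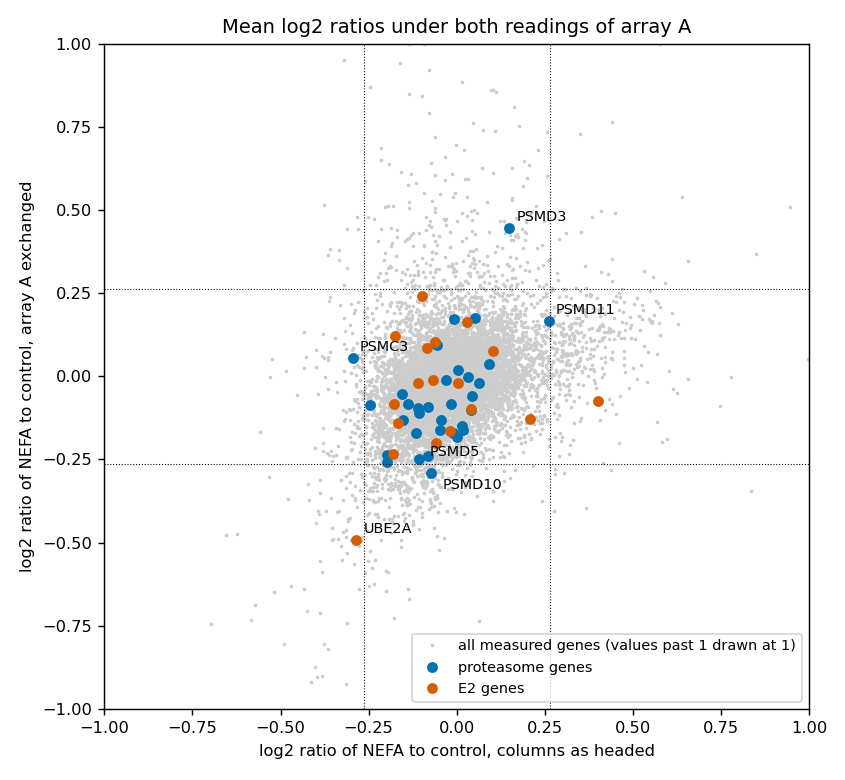
Mean log2 ratio of NEFA to control over the 4 arrays with columns as headed (x axis) and with array A exchanged (y axis) for all 9962 measured genes (grey), the proteasome genes (blue) and the E2 genes (orange). Dotted lines mark 1.2-fold. PSMD3 lies above the upper line and PSMD10 and UBE2A below the lower one on the exchanged axis. As headed, PSMC3, UBE2A and UBE2E2 lie past a line and PSMD11 just short of one, without passing the test. UBE2E2, the highest member as headed, was above background in no channel.

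The alpha ring of the 20S core had probes for 6 of its 8 genes, and none was called under either reading. As headed their log2 ratios ran from -0.11 to 0.03, with a median of -0.02. With array A exchanged all 6 were below 0, from -0.24 to 0.00, with a median of -0.13. PSMA3 gave 0.32 on array A as headed, -0.15 on B, -0.05 on C and -0.16 on D. Its mean was -0.01 ± 0.11 as headed and -0.17 ± 0.08 with A exchanged (SE, n = 4 arrays), so array A alone moved it away from 0 or back. PSMA5 read 0.31, -0.24, -0.53 and 0.13 on arrays A to D, which put 2 arrays on each side of 0 as headed. PSMA6 was the steadiest of the ring, at -0.03, -0.19, -0.09 and -0.13, with a mean of -0.11 ± 0.08 as headed and -0.09 ± 0.08 with A exchanged. PSMA8, which in mice replaces PSMA7 in the testis, was above background in no channel.

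The beta ring had probes for 3 of its 7 genes: PSMB6 and PSMB7, which carry catalytic sites, and the structural subunit PSMB4. All 3 were below 0 under both readings, with medians of -0.14 as headed and -0.17 with A exchanged, and none was called. PSMB4 read 0.08 on array A as headed, -0.07 on B, -0.66 on C and -0.14 on D. Its mean was -0.20 ± 0.13 as headed and -0.24 ± 0.12 with A exchanged. Array C thus carried most of the difference. PSMB7 was at -0.11, 0.27, -0.35 and -0.36 as headed, so that array B alone stood above 0. Its mean was -0.14 ± 0.13 as headed and -0.08 ± 0.13 with A exchanged. The immunoproteasome subunit PSMB8, which replaces a constitutive catalytic subunit in immune cells and after interferon, and the thymus subunit PSMB11 were each above background in 1 of 8 channels. Neither was above background on any array in one of the groups, so no difference is given here. PSMB11 is listed below only among the values that changed sign with the processing. None of 13 interferon response genes measured was called under either reading.

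The ATPase ring of the 19S cap had probes for 5 of its 6 genes, all above background in all 8 channels, and none was called. PSMC3 had the lowest mean of all 51 members as headed. Its ratio was -0.70 on array A, 0.47 on B, -0.46 on C and -0.49 on D, so B alone opposed the others. The mean was -0.29 ± 0.20 as headed and 0.06 ± 0.23 with array A exchanged. All 4 of its probes were below 0 as headed, from -0.29 to -0.16, but they lay on both sides of 0 with array A exchanged, from -0.09 to 0.17. With array A exchanged, PSMC3 was brighter in green than in red on all 4 arrays, with a mean log2 ratio of red to green of -0.53, whichever RNA carried the dye. PSMC2 was at 0.00, -0.13, -0.12 and -0.18 as headed, with a mean of -0.11 ± 0.08 under both readings. PSMC6 had a mean of 0.00 ± 0.12 as headed and -0.18 ± 0.09 with A exchanged. The other 2 ATPases moved the opposite way with the exchange, PSMC1 from 0.05 ± 0.14 to 0.18 ± 0.12 and PSMC5 from -0.01 ± 0.14 to 0.17 ± 0.13.

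The non-ATPase subunits of the cap had probes for 8 of 11 genes, and PSMD3 was the single call, with array A exchanged. With A exchanged, the log2 normalised intensity of PSMD3 in the NEFA RNA was 8.41, 8.34, 8.16 and 8.89 in replicates 1 to 4, and in the control RNA 7.82, 7.63, 8.02 and 8.54. The NEFA RNA was the brighter one on every array although the 2 groups overlapped, since the level also varied between arrays. The difference was 0.45 ± 0.11 (SE, n = 4, adjusted p = 0.654), and 0.15 ± 0.20 as headed, where array A read -0.59. Arrays B, C and D alone, which do not depend on how array A is read, gave 0.40 and called it higher, where 0.733% of all genes were called higher and 2.39% lower, and no other member was called. The probe was dim: with A exchanged it was above background in 3 of 4 NEFA and 1 of 4 control channels, and PSMD3 has no other probe here. Leaving out any single array kept the exchanged call, with differences of 0.36 to 0.55. The call was lost without background correction, where the difference was 0.25, and with the pairing by array ignored, and a filter on dim probes removed the probe from the fit.

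Among the other non-ATPase subunits, PSMD14, the deubiquitinase that cuts the chain from the substrate, read 0.12, 0.10, -0.62 and -0.39 on arrays A to D. Its mean was -0.20 ± 0.15 as headed and -0.26 ± 0.13 with A exchanged, with the 2 dye orientations apart as headed. PSMD11, a lid subunit known to favour assembly of the whole proteasome, read 0.19, -0.25, 0.85 and 0.25, with a mean of 0.26 ± 0.17 as headed and 0.17 ± 0.19 with A exchanged. Its 2 other probes, above background in no channel, did not reach this level of difference, at -0.10 and 0.04 as headed. The remaining 5, PSMD1, PSMD6, PSMD8, PSMD12 and PSMD13, lay between -0.16 and 0.06 as headed. With A exchanged they lay between -0.15 and -0.02, and PSMD6 and PSMD8 changed sign.

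The activators that open the core had probes for all 5 listed genes with the inhibitor, and none was called. PSME1, an interferon-inducible activator subunit, had the smallest unadjusted p of all members as headed. It read -0.32, 0.21, -0.61 and -0.27 on arrays A to D, with a mean of -0.25 ± 0.14, and fell back to -0.09 ± 0.17 with A exchanged. PSME4, the nuclear activator known from sperm formation and DNA repair, read 0.28, -0.17, 0.01 and 0.04. PSMF1, a proteasome inhibitor in vitro, read -0.30, 0.28, -0.25 and 0.04, and the means of both changed sign between the readings, from 0.04 to -0.10 and from -0.06 to 0.09. PSME2, the partner of PSME1, and the nuclear activator PSME3 stayed within 0.10 of 0 under both readings.

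The assembly chaperones, which help the core and cap form and are not part of the finished particle, included the member called lower with the smallest p. All 4 measured on all arrays were below 0 under both readings, with a median of -0.09 as headed and -0.21 exchanged. With A exchanged, the log2 level of PSMD10 was 8.77, 8.96, 8.72 and 9.23 in the NEFA RNAs of replicates 1 to 4 and 9.20, 9.20, 9.05 and 9.38 in their controls. The control RNA was brighter on each array, with ratios of -0.44 to -0.15, and the groups overlapped. The difference was -0.29 ± 0.08 (limma, adjusted p = 0.698), and -0.07 ± 0.14 as headed. Without array A it was -0.24, past neither threshold of a call. PSMD5 behaved alike: its NEFA levels were 10.66, 10.71, 10.39 and 11.34 against 10.94, 10.96, 10.68 and 11.53, a difference of -0.25 ± 0.07 (limma, adjusted p = 0.724) with A exchanged and -0.11 ± 0.12 as headed. PSMG3 was below 0 on each array as headed, at -0.04, -0.08, -0.37 and -0.12. Its mean was -0.15 ± 0.09 as headed and -0.13 ± 0.09 with A exchanged. PSMG4, like PSMG3 a chaperone of core assembly, was at -0.05 ± 0.11 as headed and -0.16 ± 0.08 exchanged.

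PSMD9, a further assembly chaperone named here after its values were seen, was the one member with a missing value. Its only spot on array C had been marked as ignored. PSMD9 read -0.02 on array A as headed, 1.59 on B and 0.08 on D, so a single array carried its mean. Unlike the other assembly chaperones it lay above 0, at 0.55 ± 0.34 as headed and 0.56 ± 0.33 exchanged, and no call was made.

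**Figure D3:**
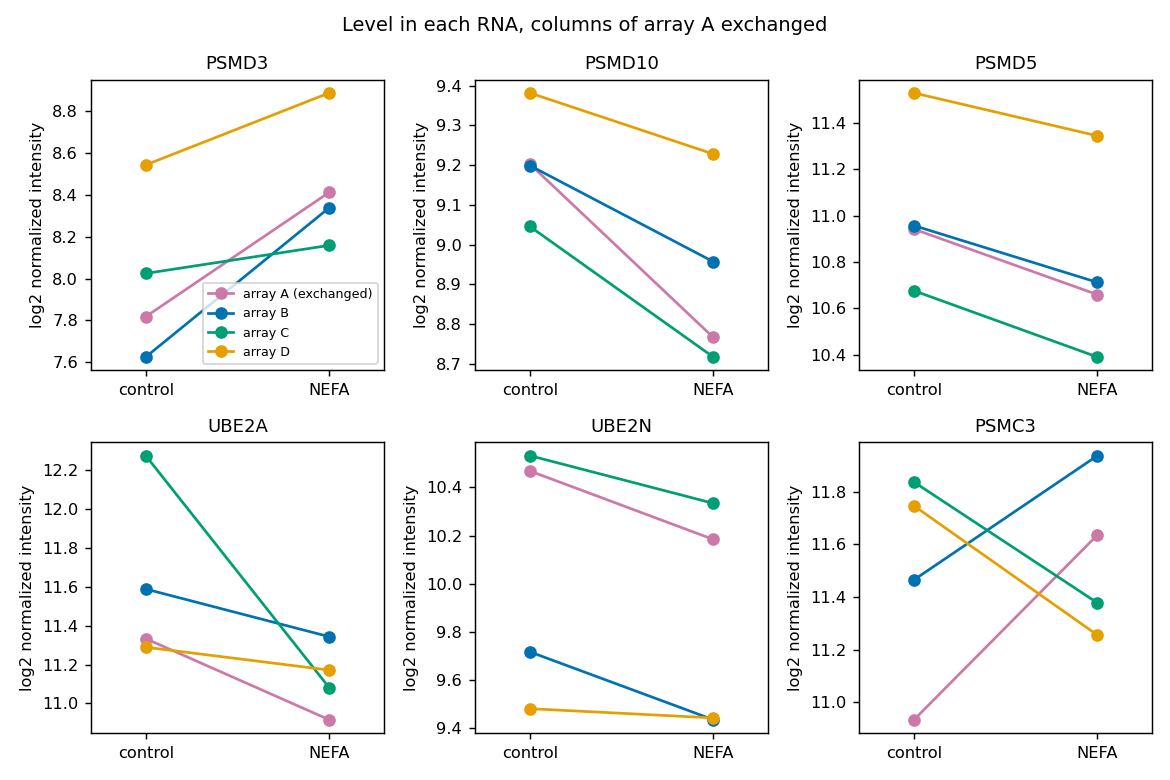
Log2 normalised intensity of 6 genes in the control and NEFA RNA of each array, with the columns of array A exchanged; each line joins the 2 RNAs of 1 array, and the y axes differ and do not start at 0. All 4 lines rise for PSMD3 and fall for PSMD10, PSMD5, UBE2A and UBE2N, whereas for PSMC3 arrays A and B rise and arrays C and D fall.

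The plot of levels shows that the lines of a gene started at different heights, so the direction of a difference was seen within arrays only. In none of the 51 members did the NEFA and control levels separate without overlap, under either reading. The share of all genes that did so is not given here, so this count does not set the members apart.

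The E2 enzymes that place the first ubiquitin had probes for 7 of 10 genes, with 2 above background in all 8 channels, and none was called. UBE2L3, which works with HECT and RBR ligases, read 0.10, -0.01, -0.46 and -0.35 on arrays A to D. Its mean was -0.18 ± 0.12 as headed and -0.23 ± 0.10 with A exchanged. UBE2D2, a broadly acting E2, read -0.19, 0.18, -0.25 and -0.45, with a mean of -0.18 ± 0.12 as headed and -0.08 ± 0.13 exchanged. In both genes arrays C and D, with NEFA RNA in red, lay lowest. UBE2H, the E2 of the CTLH ligase, and UBE2W, which tags the start of a protein chain, were above background in 6 of 8 channels. Both changed sign, UBE2H from -0.06 ± 0.10 as headed to 0.10 ± 0.10 exchanged and UBE2W from 0.04 ± 0.09 to -0.10 ± 0.09. UBE2D4 was above background in 1 channel and UBE2D1 and UBE2E2 in none.

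Among the 6 chain-building E2s measured of 10 listed, UBE2N had the smallest unadjusted p with array A exchanged. With A exchanged its NEFA levels were 10.18, 9.44, 10.33 and 9.44 and its control levels 10.47, 9.72, 10.53 and 9.48, so that NEFA was lower on every array, with ratios of -0.28 to -0.04. The difference was -0.20 ± 0.08, below 1.2-fold, with an unadjusted p just under 0.05, and -0.06 ± 0.11 as headed. UBE2S, which extends chains for the anaphase-promoting complex in dividing cells, was above background in 4 of 8 channels. Its mean was -0.17 ± 0.14 as headed and -0.14 ± 0.15 exchanged. UBE2R2, an E2 of cullin ligases, read -0.34, 0.52, -0.29 and -0.23, with a mean of -0.09 ± 0.16 as headed and 0.09 ± 0.16 exchanged. UBE2K, which builds the chains that send proteins to the proteasome, was at -0.02 ± 0.11 as headed and -0.16 ± 0.09 exchanged. UBE2G1 was at -0.10 ± 0.23 as headed and 0.24 ± 0.21 exchanged. UBE2J2, an E2 of the endoplasmic reticulum, was at 0.03 ± 0.11 as headed and 0.16 ± 0.08 exchanged. With A exchanged UBE2J2 was above background in 3 of 4 NEFA and no control channels.

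The 2 E2s of DNA repair behaved differently between arrays and probes. With A exchanged, the NEFA levels of UBE2A were 10.92, 11.34, 11.08 and 11.17 and the control levels 11.33, 11.59, 12.28 and 11.29. NEFA was lower on each array, with a ratio of -1.19 on array C and of -0.42 to -0.12 on the others. The difference was -0.49 ± 0.18 (limma, adjusted p = 0.917), and -0.28 ± 0.24 as headed. Without array C it was -0.26 and without array A it was -0.52, both with an unadjusted p above 0.05, so either omission ended the call. The other 2 probes of UBE2A gave -0.23 and 0.03 with A exchanged. UBE2T, the E2 of the Fanconi anaemia pathway, had a mean of 0.21 ± 0.21 as headed and -0.13 ± 0.22 exchanged for its brightest probe, while its second probe, above background in 7 of 8 channels, gave -0.34 exchanged, enough for a call, and -0.23 as headed.

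The remaining E2s measured were UBE2Q1, UBE2QL1 and UBE2U, of which the last 2 were above background in no channel, so no level is given. UBE2Q1 was at -0.17 ± 0.15 as headed and 0.12 ± 0.16 with A exchanged. No probe that names a single gene was annotated to the 4 E2s of ubiquitin-like proteins that carry the UBE2 prefix.

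**Figure D4:**
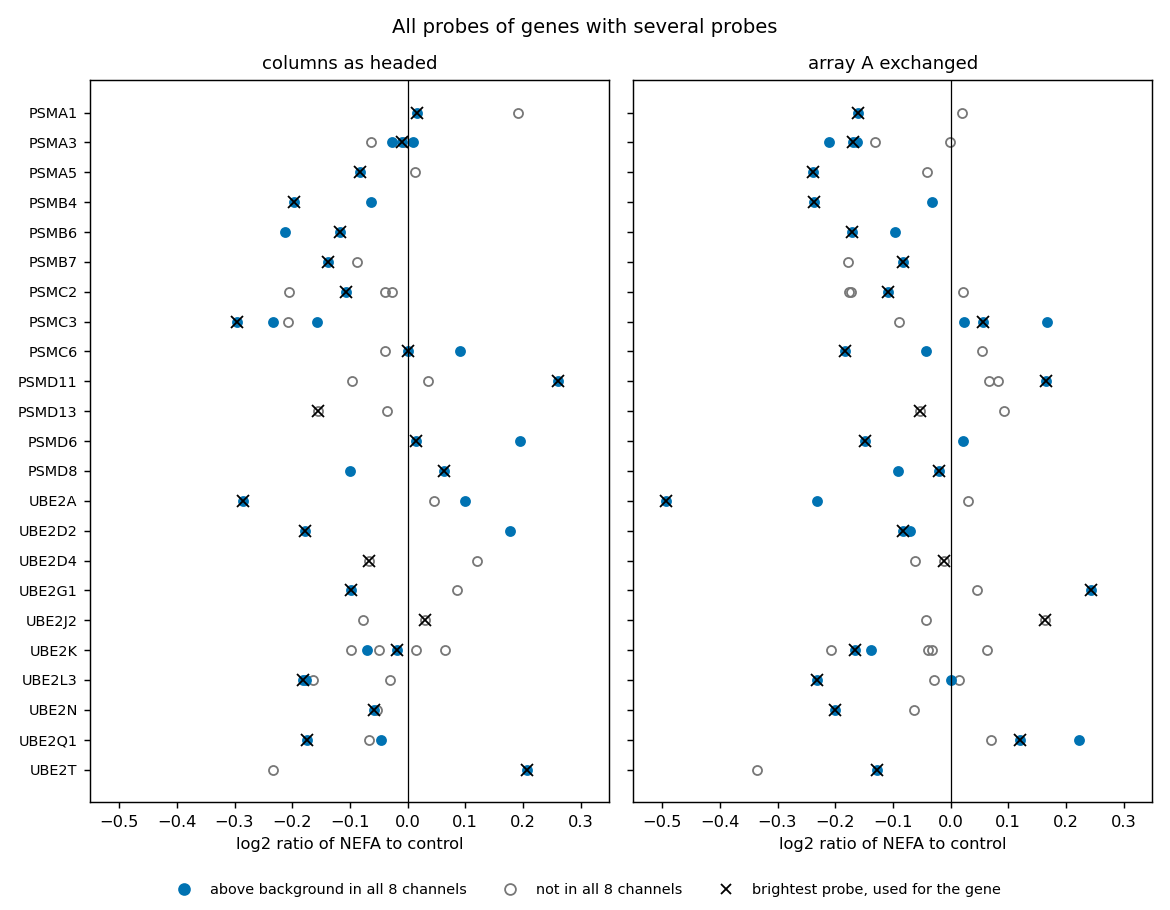
Mean log2 ratio of NEFA to control (x axis) of all 63 probes of the 23 members with several probes, with columns as headed (left) and with array A exchanged (right). Filled circles are probes above background in all 8 channels, open circles the others, and crosses mark the probe used for the gene. The 4 PSMC3 probes lie below 0 on the left only, and the bright PSMA3 probes cluster below 0 on the right.

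Probes of the same gene gave a check on single spots. In the plot of all probes, 11 of 23 members with several probes had them all on one side of 0 as headed (47.8%, against 43.1% of 2144 such genes on the array), and 13 did with array A exchanged (56.5%, against 47.2%). The 3 bright probes of PSMA3 lay between -0.21 and -0.16 exchanged and between -0.03 and 0.01 as headed. The 2 bright probes of UBE2D2 disagreed as headed, at -0.18 and 0.18, and met at -0.08 and -0.07 when array A was exchanged. For UBE2L3, by contrast, only the brightest probe was well below 0 after the exchange, the next being at 0.00.

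Array B decided how many members were called as headed. Without it, 11 members were called, 3 higher and 8 lower, beside 7.3% of all genes higher and 7.44% lower. The higher ones were PSMD11, UBE2T and UBE2E2, the last above background in no channel. The lower ones included PSMC3 (-0.55), PSME1 (-0.40), PSMB7, UBE2D2, UBE2R2 and UBE2S, and also UBE2G1 and UBE2Q1, which with UBE2E2 are named after their values were seen. Under the exchanged reading, the ratios as headed on arrays A, C and D are all of red to green. A call without array B thus nearly fixed that the same dye was brighter on those arrays. All 11 were brighter in that dye on array B too, 8 in green and 3 in red. The share of all genes that were so is not given here. These calls cannot then tell an effect of NEFAs from one of the dye.

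Other genes of the pathway gave few calls. Of 9 measured E1 enzymes and ubiquitin genes none was called under either reading by the model without a dye term. UBA1, the main E1 enzyme, read -1.67 on array A as headed, 1.16 on B, -0.21 on C and -0.07 on D, which left its mean at -0.19 ± 0.41 as headed and 0.64 ± 0.33 exchanged. With a dye term in the exchanged model it was called higher. Of 9 proteasome partners and transcription factors, NFE2L1, which activates proteasome genes when proteasome activity falls short, was called higher with A exchanged. It was then above background in 3 of 4 NEFA channels and in no control channel, so all its control levels lay within background. The difference of the measured levels was 0.31 ± 0.12, or 1.24-fold. As headed it was at 0.08 ± 0.17. Its paralogue NFE2L2 was at 0.46 ± 0.22 exchanged and -0.03 ± 0.28 as headed, and was called higher in the exchanged model with a dye term only. Of 5 E2-like genes without the prefix, UEVLD, which has an E2-like domain, was called lower under both readings, at -0.37 ± 0.15 as headed and -0.41 ± 0.14 exchanged. Its call as headed was lost without array B (-0.27), C (-0.44) or D (-0.26) and under most other settings. ATG3, the E2-like enzyme of autophagy, was called lower with A exchanged (-0.37 ± 0.11) and at -0.26 ± 0.15 as headed.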

How the data were processed

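The intensity values that the authors deposited were the mean raw signal and mean local background of each spot in both dyes, extracted in Array-Pro without normalization, together with cells marking ignored spots. Their amplified RNA was hybridised in a dye-swap design. Of 45220 spots per array, 43794 expression probes were analysed, and 60 to 121 ignored ones per array were set to missing. The normexp method (offset 50) replaced the subtraction named in the study's methods, because subtracted values at or below 0 have no log. It was followed by loess within and quantile normalization between arrays, and the mean over arrays of log2 NEFA over control was tested against 0, two-sided, in limma 3.58.1 (R 4.3.3), with Benjamini-Hochberg adjustment over all probes. No unadjusted p is printed, given 4 arrays. The array pairs the 2 RNAs of a replicate. The number of arrays limits the precision.

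The annotation names 1 gene for 13146 probes, and 153 symbols were updated. The other 30648 expression probes were not assigned to a gene, which includes any that name several genes. The sign follows the channel fields. It is likely rather than settled. Of the genes for which the study names a direction, AGPS, MAP3K8, IL33 and GAPDH have that sign by these fields. AGO1 has the opposite sign, and TLR6, which the study also names, was not compared. Those directions come from the study's own analysis of these arrays, and its RT-qPCR on other replicates did not repeat that of AGPS. GAPDH was near 0 with array A exchanged (-0.02). Members, role lists and tests were chosen with earlier results of these data known. Named were members called under either reading, per role the 2 with the smallest p as headed and the 1 with the smallest p with array A exchanged, and up to 3 genes of each other pathway list; others are named for completeness or as stated. The scripts were tested on simulated data. The authors' table of ratios was not used, since no key linked its rows to spots, and no coordinates are given, since the files hold none and the study names Sus scrofa 11.1 for its annotation of genes only. Alternatives tried were the background correction, both normalization steps, a filter on dim probes, the mean of a gene's probes, a dye term, unpaired channels, an intensity trend and leaving out each array.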

Additional observations from a re-analysis of the deposited data

Results flagged for a closer look

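Over 28 members, the 4 arrays were searched for a single array far from the rest under each reading, and 2 of 56 such groups stood out, where chance alone flags about 1 in 20. PSMB4, a structural subunit of the beta ring, read -0.66 on array C, while the other arrays lay between -0.14 and -0.07 with array A exchanged. UBE2R2, an E2 of cullin ligases, read 0.52 on array B as headed, while the other arrays lay between -0.34 and -0.23.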

How the results depend on the processing

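Leaving out array B moved the calls as headed most, to 3 higher and 8 lower. Signs under the settings were followed only for the genes picked by the naming rule above. Among these, exchanging array A turned the most log2 ratios. They were PSMC3 (to 0.056), PSMC6 (-0.18), PSME4 (-0.10), PSMF1 (0.093), UBE2R2 (0.0858), UBE2T (-0.13), UBA1 (0.64), RPS27A (-0.18) and NFE2L2 (0.46). The values were the same when a dye term was added. Members outside the rule that also changed sign were PSMA1, PSMA4, PSMC5, PSMD6, PSMD8, PSME3, UBE2D1, UBE2E2, UBE2G1, UBE2H, UBE2Q1 and UBE2W. The exchange raised the calls among members from 0 to 1 higher and 2 lower, also with the dye term, which added calls of UBA1 and NFE2L2. As headed, the other settings left 0 calls. They turned values near 0, namely PSMB11 (-0.0014) and PSMC6 (-1e-04) under background subtraction, GBP2 (0.0173) without background correction, PSMA3 (0.0236) without normalization between arrays, and UBE2D2 (3e-04) and UBE2T (-0.0132) with the mean of all probes. Leaving out each array as headed gave 0 to 3 calls higher and 0 to 8 lower, and changed signs over the ranges GBP2 -0.11 to 0.076, IRF1 -0.0135 to 0.30, NFE2L1 -0.069 to 0.26, NFE2L2 -0.36 to 0.28, PSMA3 -0.12 to 0.0414, PSMA5 -0.21 to 0.0672, PSMB11 -0.0382 to 0.0275, PSMC6 -0.12 to 0.0849, PSMD10 -0.24 to 0.0136, PSMD3 -0.0386 to 0.40, PSME4 -0.0412 to 0.11, PSMF1 -0.17 to 0.0236, RPS27A -0.12 to 0.0778, UBA1 -0.65 to 0.30, UBE2A -0.52 to 0.0182, UBE2N -0.17 to 0.0159, UBE2R2 -0.29 to 5e-04 and UFM1 -0.17 to 9e-04. With array A exchanged (combinations chosen after seeing the data, except the dye term and the left-out arrays), calls lower fell from 2 to 1 under background subtraction, the mean of all probes, no background correction and the filter on dim probes, the last 2 with 0 higher. Without normalization between arrays 2 were higher and 0 lower. Leaving out each array gave 1 call higher each time and 0 to 4 lower. Without the replicate block, that is with the pairing by array ignored, 0 members were higher and 1 lower exchanged (PSMD3 and PSMD10 lost their calls) and 0 as headed. UEVLD kept its call as headed with median centring, without background correction, with array A exchanged and without replicate 1, and lost it under the other settings. The cause of these shifts was not tested. Over all genes the calls ranged from 2 to 727 higher and from 6 to 741 lower as headed, against 28 and 52, both maxima without array B. The study's table of ratios could not be run as an alternative.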
